A study of Culex quinquefasciatus with 7 samples.

Results

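The genes described here are the early decliners of the newly emerged female mosquito: transcripts that were present soon after emergence, were at least 4-fold lower 3 days later, and had made most of that descent by 12 h. They were chosen on log2(FPKM + 1), where FPKM is fragments per kilobase of gene model, relative to the mapped fragments of the library. A gene had to hold at least 5 FPKM at 2 h, to be lower by at least 2 on that scale at 72 h than at 2 h, and to have covered at least 50% of that difference by 12 h. This rule picked 143 of the 20305 genes in the table, and 143 of the 338 genes that met its conditions on level and decline. After the libraries are rescaled to one another the same rule picks 245 genes, the 143 and 102 more. Messenger RNA came from whole adult females of Culex quinquefasciatus, the southern house mosquito, collected 2, 12, 24, 36, 48, 60 and 72 h after eclosion, when the adult leaves the pupal case. There was 1 library per time, each from 200 pooled females kept under equal spans of light and dark. No treatment or mutant was studied, and no strain is named in the labels. The values at 2, 12 and 72 h chose the genes and are given as a description, while the libraries at 24, 36, 48 and 60 h were not used in the choice and carry the tests. These 4 libraries lie between libraries that were used, so a fall over them is not independent of the choice.

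At eclosion a mosquito is still finishing its change from pupa to adult: the cuticle hardens and darkens, larval and pupal tissues are broken down, and transcripts made late in the pupa are still present. Over the following days juvenile hormone, a lipid hormone from the corpora allata, brings the fat body and ovaries to the state in which a blood meal can start yolk formation. A transcript disappears from such a time course when its synthesis stops and the existing copies decay, or when the cells that hold it are lost. In whole-body RNA fewer cells of a type and less RNA per cell cannot be told apart.

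The deposited table gives each gene only as an identifier that starts with CPIJ and does not pair it with a name. The RefSeq reference table, with 18458 genes, held 0 of the 20305 identifiers, so no name, function, position or sequence is given for any of the 143 genes. The planned groups by gene name (cuticle, proteases, storage proteins and others) were not run, and the labelled sex and tissue were not checked against marker genes. A single library per time gives no replicate error. Judged from the steps between the lowest values, the sequencing depth of the later libraries lay between 0.744 (60 h) and 1.19 (72 h) of the depth at 2 h; absolute depth is unknown. The deposited values of genes expressed throughout (at least 10 FPKM in each of the 7 libraries) also shifted upward as a whole, by 0.25 on the log2 scale at 12 h relative to 2 h and by 0.57 at 72 h relative to 2 h, so the falls below are understated relative to such genes.

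The early decliners spanned a wide range of abundance just after emergence. At 2 h they ranged from 5.06 to 1078 FPKM with a median of 37.1 FPKM. Of the 143 genes, 50 held under 20 FPKM, 58 held 20 to under 100 FPKM, 34 held 100 to under 1000 FPKM and 1 held over 1000 FPKM. The member at the median level ranked 1167th among all genes at 2 h, where 5614 genes held at least 5 FPKM. Of the 100 most abundant genes of the 2 h library 2 were members, and of the 500 most abundant 30 were. Among all genes with at least 5 FPKM at 2 h, 2.55% were members. Together they made up 2.93% of all FPKM at 2 h, and the 5 most abundant held 30.1% of their sum. Their share then stood at 0.414% (12 h), 0.299% (24 h), 0.262% (36 h), 0.246% (48 h), 0.210% (60 h) and 0.213% (72 h). The 195 strong decliners that passed the 50% point after 12 h took a larger part of the RNA, at 32.2% of all FPKM at 2 h, 20.9% of it at 12 h and 1.72% of it at 72 h.

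Their median level was 37.1 FPKM at 2 h, 4.68 FPKM at 12 h, 2.89 FPKM at 24 h, 2.34 FPKM at 36 h, 2.59 FPKM at 48 h, 1.99 FPKM at 60 h and 2.50 FPKM at 72 h. The rule fixes that at least 50% of each gene's log2 descent lay before 12 h. The medians from 24 h on lay between 1.99 and 2.89 FPKM. The median log2 change at 12 h relative to 2 h was -2.46 (interquartile range -3.36 to -1.80), and at 72 h relative to 2 h it was -3.06 (-4.05 to -2.42). Relative to the genes expressed throughout, by rescaling of the libraries, these medians were -2.73 and -3.49. By 12 h, 93 genes were at least 4-fold lower than at 2 h, 38 at least 10-fold and 9 at least 32-fold, all on the FPKM + 1 scale. All 143 were at least 2-fold lower at 12 h, which the rule fixes; 6.22% of all genes were, where at least 5 FPKM was required in 1 of the 2 libraries. If each share had fallen at a constant rate over these 10 h, it would have halved every 3.54 h at the median (interquartile range 2.37 to 5.09 h, 142 genes; 1 gene was listed at 0 at 12 h).

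**Figure D1:**
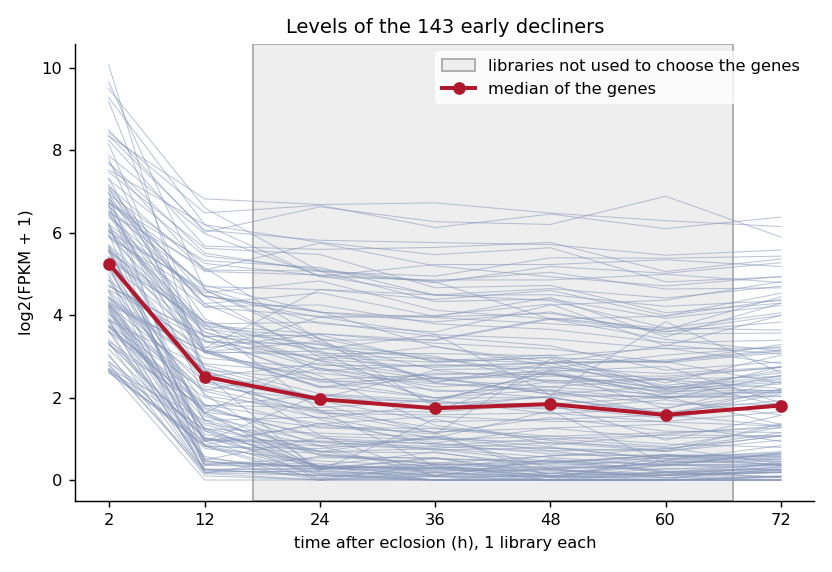
Level of each of the 143 early decliners (thin lines) as log2(FPKM + 1) against the time after eclosion in hours, with the median of the genes in red; each time is 1 library. The shaded span holds the 4 libraries that were not used to choose the genes, where the median lies between 1.99 and 2.89 FPKM, against 37.1 FPKM at 2 h.

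Just inside and outside the rule the genes differed little. The member with the lowest level at 2 h held 5.06 FPKM, and the highest of the 15 genes that met all conditions but this minimum held 4.9995 FPKM. The smallest decline inside was -2.03 and the largest outside -1.99 (log2, 72 h minus 2 h). The part covered by 12 h was 50.8% for the lowest member and 49.6% for the highest gene outside.

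The most abundant member was CPIJ017620. Its level was 1078 FPKM at 2 h, 4.28 FPKM at 12 h, 2.15 FPKM at 24 h, 1.21 FPKM at 36 h, 0.0583 FPKM at 48 h, 0.392 FPKM at 60 h and 0.783 FPKM at 72 h. It ranked 57th among all genes at 2 h and had the largest fall of the group by 12 h, -7.67 on the log2 scale. The next most abundant, CPIJ009099, held 805 FPKM at 2 h, 23.5 FPKM at 12 h, 9.83 FPKM at 24 h, 2.41 FPKM at 36 h, 2.41 FPKM at 48 h, 1.83 FPKM at 60 h and 2.65 FPKM at 72 h. Its descent was more drawn out, with 64.7% of its log2 decline covered at 12 h and 79.9% at 24 h. CPIJ008211, which had the second largest fall by 12 h (-6.53), held 124 FPKM at 2 h, 0.360 FPKM at 12 h, 0.247 FPKM at 24 h, 0.210 FPKM at 36 h, 0.509 FPKM at 48 h, 0.526 FPKM at 60 h and 0.283 FPKM at 72 h. Its descent was over at 12 h, when 98.7% of the log2 decline had been covered.

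The genes differed in how far the descent had gone at 12 h. Between 50% and 75% of the log2 decline had been covered by 68 genes, 75% to under 100% by 53 genes, and 22 genes were at or under their 72 h level at 12 h. The median part covered was 77.4% at 12 h (interquartile range 67.3% to 94.2%), 95.2% at 24 h (85.7% to 101%) and 98.6% at 36 h (92.3% to 104%). For the 152 strong decliners that passed the 50% point between 12 and 24 h, the medians were 23.5% at 12 h, 72.6% at 24 h and 95.5% at 36 h. For the 43 that passed it after 24 h, the medians at 12, 24 and 36 h were 2.34%, 34.5% and 79.8%. The order of the 3 sets at 12 h, and of the later 2 at 24 h, follows from how they were defined. At 36 h the medians stood in the same order, and at 60 h all 3 lay between 102% and 103%. Every gene stands at 100% at 72 h by definition, which favours such a meeting shortly before. The order at 36 h is likewise favoured by how the sets were defined.

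**Figure D2:**
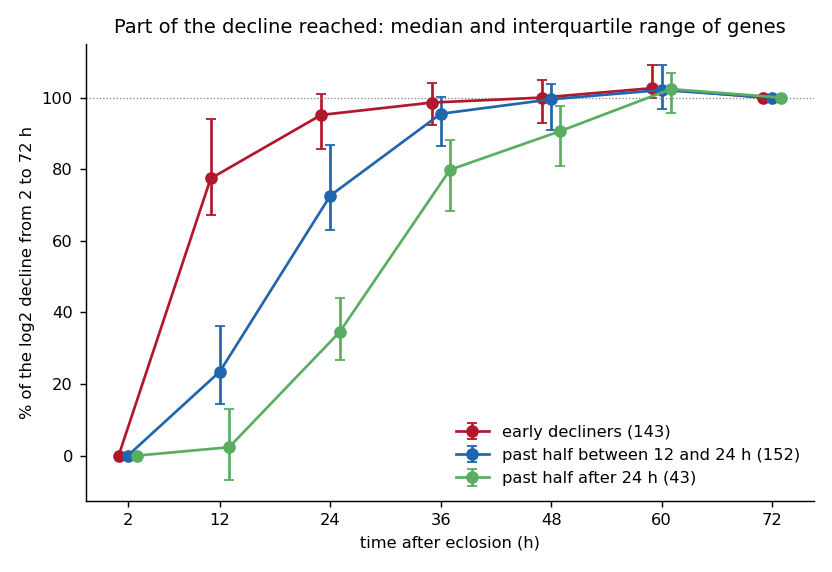
Part of the log2 decline from 2 to 72 h that had been covered at each time, in percent, as the median (points) and interquartile range over genes (bars) for the early decliners and the 2 later sets of strong decliners; points are set 1 h apart sideways so that the bars can be seen. The early decliners stood at a median of 77.4% at 12 h and 95.2% at 24 h, and the sets meet at 60 h. At 72 h every gene stands at 100% by definition.

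Many early decliners were lowered and not lost. At 12 h, 70 of the 143 genes still held at least 5 FPKM, 39 held 1 to under 5 FPKM, 33 were above 0 and under 1 FPKM, and 1 was listed at 0. At 72 h the numbers were 46, 42, 49 and 6. Bounds of 5 and 1 FPKM were set on the 4 libraries that were not used in the choice. Genes at or above the first are described as keeping a basal level, and genes under the second as having all but vanished. In all 4 libraries 39 genes held at least 5 FPKM and 46 genes lay under 1 FPKM. The other 58, the largest set, fell between these bounds or crossed them.

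The 39 genes with a lasting basal level had a median of 106.5 FPKM at 2 h, 24.8 FPKM at 12 h and 18.6 FPKM at 72 h, with a median log2 change of -1.90 at 12 h relative to 2 h. The third most abundant member, CPIJ002088, belonged to them, at 719.7 FPKM at 2 h, 96.1 FPKM at 12 h, 32.4 FPKM at 24 h, 29.8 FPKM at 36 h, 41.0 FPKM at 48 h, 40.7 FPKM at 60 h and 42.2 FPKM at 72 h. The 46 genes that all but vanished had a median of 16.3 FPKM at 2 h (5.06 to 124 FPKM), 0.774 FPKM at 12 h and 0.198 FPKM at 72 h, with a median log2 change of -3.18 at 12 h relative to 2 h. The 2 sets were split by their level after the descent, so these differences at 2 and 12 h are a description. Of the 143 genes, 17 were listed at 0 in at least 1 of the 4 libraries and 2 in all 4: CPIJ009585, which held 29.3 FPKM at 2 h and 0.118 FPKM at 12 h, as well as CPIJ015811, which held 5.39 FPKM at 2 h and was listed at 0 in every later library. A listed 0 can be a failed estimate. CPIJ002088 and these 2 genes were picked with their values known.

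**Figure D3:**
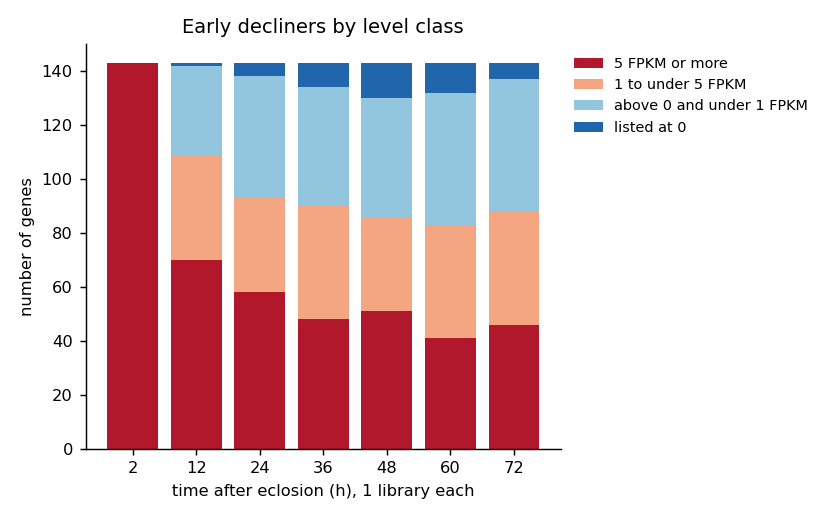
Number of the 143 early decliners at 5 FPKM or more, at 1 to under 5 FPKM, above 0 and under 1 FPKM, and listed at 0, for each library by time after eclosion in hours. The class at 5 FPKM or more holds 70 genes at 12 h and 46 at 72 h, and between 1 and 13 genes are listed at 0 from 12 h on.

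Over the 24, 36, 48 and 60 h libraries the median standard deviation of a gene's log2(FPKM + 1) was 0.27 among the 39 genes with a lasting level, 0.32 among the 58 between and 0.14 among the 46 under 1 FPKM, where the pseudocount compresses differences. Across the 143 genes the correlation of log2(FPKM + 1) between any 2 of the 4 libraries was 0.955 to 0.979 (Pearson's r, 6 pairs), against 0.935 to 0.988 across the 5614 genes with at least 5 FPKM at 2 h. Genes are not independent replicates, and each correlation rests on the same gene models.

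The descent went on between 12 and 24 h in part of the group. From 12 to 24 h, 116 of the 143 genes were lower at 24 h, with a median log2 change of -0.39 over the 143. Of the 73 that held at least 5 FPKM in 1 of these 2 libraries 78.1% were lower, against 29.2% of all such genes. The median log2 change over all such genes was 0.30. A gene that met this minimum only at 12 h had to be lower at 24 h. Of the 73 early decliners, 13 were at least 2-fold lower at 24 h and 2 were at least 2-fold higher, where 3.99% and 9.53% of all genes were. The 12 h library also chose the genes, so this interval is a description. The 2 genes that were higher again were CPIJ012719, with 23.6 FPKM at 24 h, against 8.21 FPKM at 12 h, and CPIJ007056, with 6.71 FPKM at 24 h, against 2.09 FPKM at 12 h. Both stayed above their 12 h level in every later library, CPIJ012719 between 14.8 and 23.3 FPKM and CPIJ007056 between 3.90 and 8.43 FPKM.

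In the intervals that the choice did not touch, single genes stood out. From 24 to 36 h, 2 of 60 genes were at least 2-fold lower, CPIJ009099 and CPIJ011369, and 0 were higher, against 1.48% and 1.62% of all genes. CPIJ011369 held 2.58 FPKM at 36 h, against 7.62 FPKM at 24 h. From 36 to 48 h, 1 of 56 was lower (CPIJ004660) and 1 higher (CPIJ012716), against 0.593% and 0.472% of all genes. From 48 to 60 h, 1 of 52 was lower (CPIJ013289, with 8.56 FPKM at 60 h, against 18.3 FPKM at 48 h) and 1 higher (CPIJ004660), against 0.507% and 0.447%. CPIJ004660 had no settled level: it held 159 FPKM at 2 h, 7.73 FPKM at 12 h, 14.5 FPKM at 24 h, 10.6 FPKM at 36 h, 3.18 FPKM at 48 h, 13.3 FPKM at 60 h and 5.09 FPKM at 72 h. From 60 to 72 h it was also the 1 gene of 48 that was at least 2-fold lower, and 0 were higher, against 0.869% and 0.286% of all genes. The 72 h library also chose the genes, so this last interval is a description. With 1 or 2 genes in each interval, no difference from all genes can be read from these shares. Apart from CPIJ009099 and CPIJ012716, the genes of this and the preceding paragraph were named after their values were seen.

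Over the whole span from 24 to 60 h a slower fall was found in part of the group. A slope on time was fitted to the 24, 36, 48 and 60 h libraries with limma, over the 11772 genes whose mean in these 4 libraries was at least 1 FPKM. Of the 143 early decliners 87 could be tested, and 56, including all 46 that all but vanished, were too low. At a limma adjusted p of 0.05 (Benjamini-Hochberg over all genes tested), 20 of the 87 fell and 2 rose, where 4.82% of all genes fell and 8.58% rose. At an unadjusted limma p under 0.05, 30 of the 87 fell and 3 rose, where 9.34% and 20.6% of all genes did. The median slope of the 87 was -0.28 per 24 h on the log2 scale, against 0.11 over all genes tested, and 67 of the 87 slopes were below 0 (77.0%, against 37.3% of all). The rule asked for low levels at 72 h and let part of the decline remain after 12 h. It therefore favours falls over 24 to 60 h among the early decliners, while all genes carry no such condition.

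The 20 genes that fell had slopes from -1.17 to -0.56 per 24 h, with a median of -0.72 and a median standard error of 0.18. Their median level was 11.8 FPKM at 24 h, 7.71 FPKM at 36 h, 7.01 FPKM at 48 h and 4.94 FPKM at 60 h. All 20 were highest of the 4 libraries at 24 h, 17 were lowest at 60 h, and 10 were lower at every step. At 72 h, a library outside the fit that was used to choose the genes, 19 of the 20 stood above their 60 h level. From 60 to 72 h only 27.2% of all genes with at least 5 FPKM in 1 of the 2 libraries were lower. All 20 stood below their 24 h level at 72 h, which the choice of low values at 72 h favours. The 60 h library, the shallowest, was also the lowest of the 4 for 62 of the 143 genes, against 13 for the 24 h library. The same count over all genes is not given here. From 48 to 60 h, 66.1% of all genes compared were lower, and 75% of the early decliners compared. Lower values at 60 h than at 48 h were thus common outside the group too. From 24 to 60 h these shares were 42.1% and 83.1%. Both comparisons required 5 FPKM in 1 of the 2 libraries. A gene that reached this minimum only in the earlier library was bound to count as lower. Of the 59 early decliners compared over 24 to 60 h, 58 reached it in the earlier library and 41 in the later. Their 83.1% is thus partly fixed by this minimum and by the rule. No contrast with all genes is drawn from it. The part of depth in the low 60 h values was not tested.

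The steepest falls were those of CPIJ009098 and CPIJ009099. CPIJ009098 held 581 FPKM at 2 h, 9.35 FPKM at 12 h, 4.77 FPKM at 24 h, 1.51 FPKM at 36 h, 0.945 FPKM at 48 h, 0.633 FPKM at 60 h and 1.58 FPKM at 72 h. Its slope was -1.17 ± 0.21 per 24 h (SE over 4 libraries, limma adjusted p = 0.0012). The slope of CPIJ009099 was -1.16 ± 0.24 (limma adjusted p = 0.0036). The 2 genes that rose were CPIJ012716, at 0.90 ± 0.27 (limma adjusted p = 0.033), and CPIJ018956, at 0.74 ± 0.18 (limma adjusted p = 0.013). CPIJ012716 held 47.5 FPKM at 2 h, 0.918 FPKM at 12 h, 1.53 FPKM at 24 h, 1.16 FPKM at 36 h, 6.63 FPKM at 48 h, 3.71 FPKM at 60 h and 4.76 FPKM at 72 h, a partial return from 48 h on. CPIJ018956 held 18.0 FPKM at 2 h, 2.51 FPKM at 12 h, 2.38 FPKM at 24 h, 2.81 FPKM at 36 h, 5.22 FPKM at 48 h, 5.74 FPKM at 60 h and 2.66 FPKM at 72 h, so its rise was not kept at 72 h.

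The fit has 2 residual degrees of freedom, and single libraries decide its calls. When the 24 h library was left out, 0 of 86 early decliners fell by limma's test (13 at an unadjusted p under 0.05), beside 52 of all 11809 genes. With the 48 h library left out 4 of 88 fell, beside 136 of 11725, with the 60 h library left out 11 of 89, beside 342 of 11785, and with the 36 h library left out 21 of 88, beside 662 of 11796. With no minimum level 2 of 141 fell, beside 135 of 17794. Calls were thus fewer over all genes too, except without the 36 h library. The slope of CPIJ009099 was -0.27 (limma adjusted p = 0.99) without the 24 h library, with adjusted p between 4.2e-07 and 0.99 over the settings that could test it. That of CPIJ009098 was -0.62 (limma adjusted p = 0.69), with adjusted p between 5.5e-07 and 0.69. Of the 195 later strong decliners 163 could be tested, of which 115 fell (70.6%, against 23.0% of the 87 early decliners) and 0 rose. The median of these 163 slopes was -0.80 per 24 h. By definition the later set had over 50% of its decline left after 12 h, so more falls over 24 to 60 h are built into it. The difference between the 2 sets was not tested.

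**Figure D4:**
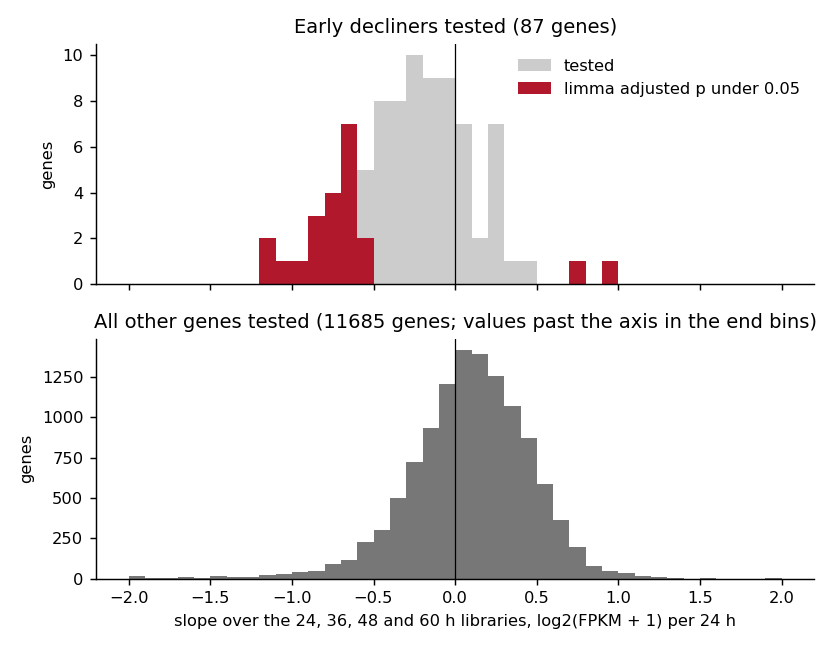
Slopes on time over the 24, 36, 48 and 60 h libraries, in log2(FPKM + 1) per 24 h, for the 87 early decliners that could be tested (top; red marks genes with a limma adjusted p under 0.05) and for all other genes tested (bottom). Of the 87 slopes 67 lie below 0, and the marked genes are 20 that fell and 2 that rose.

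Early decliners often carried successive identifier numbers, a property the choice did not use. Of the 143 genes, 26 (18.2%) had another member at the next lower or next higher number, in 10 runs of 2 and 2 runs of 3. The members had 286 neighbouring positions in the table, counted once for each member, so that a gene beside 2 members counts at both. Of these positions, 112 held a gene with at least 5 FPKM at 2 h, and 28 of the 112 (25%) held a member. The 26 members in runs fill these 28 positions. Among all 5614 genes with at least 5 FPKM at 2 h, each counted once, 2.55% were members. A further 8 of the 112 positions (7.14%) held later strong decliners, against 3.47% of the 5614 genes. No source used here ties a number to a place in the genome, and the cause of the shared time courses was not tested. Near-identical neighbours could share reads, whose assignment by the authors no source describes. Of the neighbours that were no members, 94 held at least 5 FPKM at 2 or 12 h. At 12 h relative to 2 h, 10 of these (10.6%) were at least 2-fold lower and 15 (16.0%) at least 2-fold higher, against 4.20% and 11.4% of all 6621 such genes.

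All members share the early descent by choice, so within a run the later libraries are the ones to compare. CPIJ009098 and CPIJ009099 were both lower by over 5 on the log2 scale at 12 h than at 2 h (-5.81 and -5.04), and lower again at 24 and 36 h. The next numbers, CPIJ009100 and CPIJ009101, were later strong decliners: CPIJ009100 held 1159 FPKM at 2 h, 262 FPKM at 12 h, 10.5 FPKM at 24 h and 0.715 FPKM at 36 h. At these times CPIJ009101 held 1317, 152, 49.1 and 3.25 FPKM. These 4 neighbouring genes thus all stood above 500 FPKM at 2 h and under 4 FPKM at 36 h. CPIJ010335 and CPIJ010336 ran in parallel down to levels that changed little from 24 h on: CPIJ010335 held 144 FPKM at 2 h, 14.1 FPKM at 12 h, 5.27 FPKM at 24 h, 5.96 FPKM at 36 h, 5.60 FPKM at 48 h, 4.99 FPKM at 60 h and 5.71 FPKM at 72 h. Its 60 h value lay just under 5 FPKM, so it is not among the genes described as keeping a basal level. CPIJ010336 held 621 FPKM at 2 h, 72.2 FPKM at 12 h, 29.4 FPKM at 24 h, 27.9 FPKM at 36 h, 27.9 FPKM at 48 h, 30.8 FPKM at 60 h and 26.7 FPKM at 72 h. Their log2 changes were -3.26 and -3.09 at 12 h relative to 2 h and -1.27 each at 24 h relative to 12 h.

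In other runs the members parted. CPIJ007055 and CPIJ007056 held 35.3 and 32.9 FPKM at 2 h, and 2.52 and 2.09 FPKM at 12 h, but 0.781 and 6.71 FPKM at 24 h and 0.957 and 5.05 FPKM at 72 h. The neighbours of CPIJ009098, the run of CPIJ010335 and that of CPIJ007055 were picked after their values were seen.

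**Figure D5:**
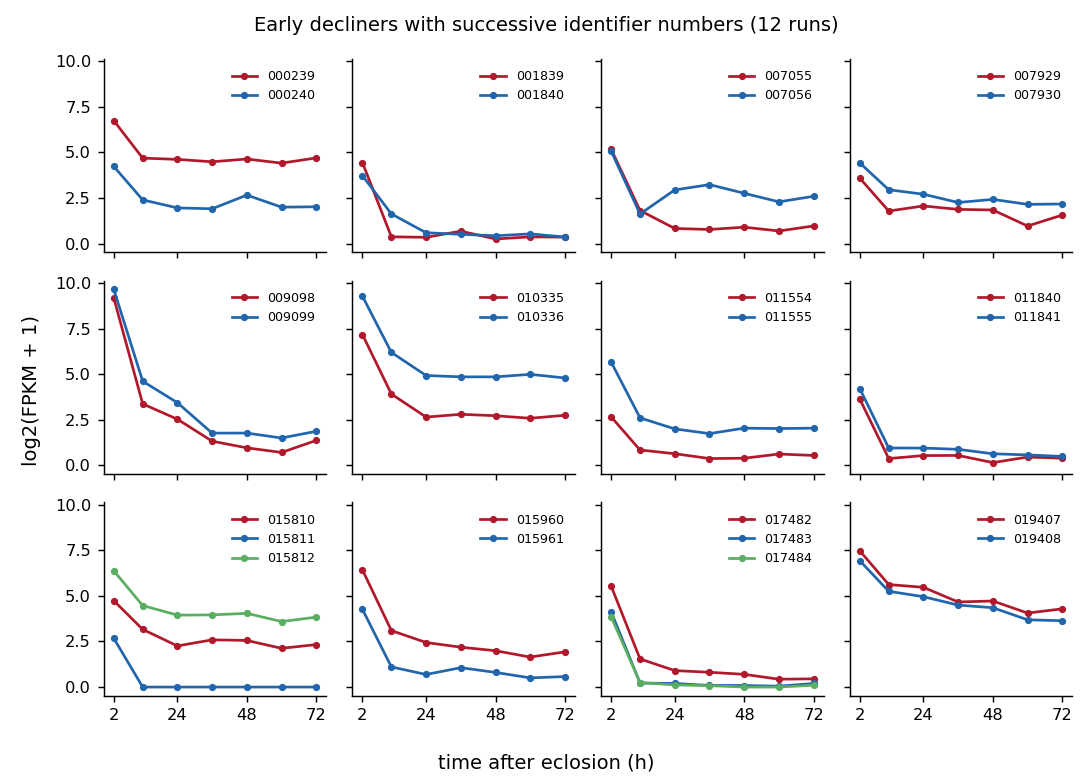
Level as log2(FPKM + 1) against the time after eclosion in hours for the 26 early decliners in the 12 runs of successive identifier numbers, 1 panel per run; legends give the number part of the identifier. All genes descend early by choice; from 24 h on CPIJ010335 and CPIJ010336 stay level at different heights, while CPIJ007055 and CPIJ007056 part after 12 h.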

How the data were processed

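Messenger RNA of 7 pools of whole females, 1 per time, was sequenced as read pairs on an Illumina instrument, per the labels' protocols. The deposited values were read as FPKM, a unit inferred because the series' design text names TopHat, Cufflinks and Cuffdiff and because the values are fractional with unequal sums; the file header gives gene and hour alone. CASAVA 1.8 and Trimmomatic come from the submitters' processing notes. Genome build, annotation, strand setting and scaling of libraries: not given in the sources used here.

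From the deposited FPKM, log2(FPKM + 1) was computed. The pseudocount of 1 understates changes of low genes. Pairs of libraries were compared without a test: a difference of at least 1 counted as a change where either library held at least 5 FPKM. limma 3.58.1 in R 4.3.3 (lmFit, eBayes with a mean-dependent prior) fitted the slope on time over the 4 libraries at 24 to 60 h. It was also run on simulated data with straight slopes and independent noise. That run does not cover curved time courses or shifts of single libraries. Relative depth came from the commonest ratio between libraries among values above 0 and under 0.3 FPKM. Other steps used Python 3.11.15 with pandas 2.3.3.

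Without gene names, the genes given by identifier are the 2 most abundant members at 2 h, the 2 with the largest fall by 12 h among members with at least 10 FPKM at 2 h, and the 2 with the steepest slopes in each direction; others are marked where they occur. The members, lists and tests were chosen with earlier results of these data known. The alternatives were a pseudocount of 0.1, rescaling by the median ratio (2761 genes, each at 10 FPKM or more throughout), other minimum levels and thresholds, time on a log2 scale and the omission of each library.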

Additional observations from a re-analysis of the deposited data

How the results depend on the processing

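The rule picked 162 genes with a pseudocount of 0.1 (134 of them among the 143) and 123 with a minimum of 10 FPKM at 2 h. It picked 245 after rescaling by the median ratio (all 143 and 102 more), 74 with a decline of at least 3, and 75 with at least 75% of the decline by 12 h. Median log2 changes relative to 2 h were larger in size with a pseudocount of 0.1, at -2.79, -3.31, -3.76, -3.75, -3.90 and -3.63 for 12, 24, 36, 48, 60 and 72 h, and after rescaling, at -2.73, -3.25, -3.39, -3.41, -3.58 and -3.49, against -2.46, -2.78, -3.02, -3.01, -3.19 and -3.06. With a pseudocount of 0.1 the median part of the decline covered was 72.2% at 12 h and 91.2% at 24 h, and after rescaling it was 74.6% and 94.8%. Without CPIJ017620 the share of all FPKM at 2 h was 2.68%.

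For 2-fold steps, a pseudocount of 0.1 gave 4 genes lower from 24 to 36 h, 2 higher from 36 to 48 h and 3 lower from 48 to 60 h. Rescaling gave 2 lower from 36 to 48 h and 0 lower from 48 to 60 h. No minimum gave 1 higher and 4 lower from 24 to 36 h, 2 lower from 36 to 48 h and 2 lower from 48 to 60 h.

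By limma's test over 24 to 60 h, 20 genes fell and 2 rose. Over all genes tested 567 fell and 1010 rose. With no minimum 2 members fell and 0 rose (40 and 5 at an unadjusted p under 0.05), beside 135 and 82 of all genes, with more genes tested. Rescaling gave 16 and 1 (391 and 749 of all genes), a minimum mean of 5 FPKM 16 and 1 (559 and 988), a pseudocount of 0.1 gave 20 and 2 (567 and 1028), and log2 of time 21 and 2 (683 and 1461). Leaving out each library in turn gave 0 to 21 members that fell and 0 to 3 that rose, beside 52 to 662 and 33 to 1014 of all genes; these fits have 1 residual degree of freedom. Rises were 0 without the 24 h library (4 at an unadjusted limma p under 0.05) and without the 48 h library (4). Of 32 alternative slopes of the 4 genes given with a test, 0 changed sign and 12 lost their call: 2 for CPIJ009098, 3 for CPIJ009099, 3 for CPIJ018956 and 4 for CPIJ012716, those of CPIJ012716 including rescaling. With a minimum mean of 5 FPKM all 4 genes were too low to be tested, so that setting is not among the 32 and its 1 rise was another gene. The causes were not tested beyond the fewer libraries or the added genes.

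Within 5 identifier numbers of another member lay 45 genes, against 26 at the next number. Depth limits the values under 1 FPKM, most of all at 60 h, the shallowest. No paired analysis was possible because no time has more than 1 library. Groups by gene name were not run.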

Other observations

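Some genes at the number next to an early decliner moved the other way by 12 h. Next to CPIJ010336 stood CPIJ010337, 7.69 higher on the log2 scale at 12 h than at 2 h. CPIJ010337 held 1.41 FPKM at 2 h, 496 FPKM at 12 h, 196 FPKM at 24 h, 118 FPKM at 36 h, 104 FPKM at 48 h, 103 FPKM at 60 h and 109 FPKM at 72 h. Next to CPIJ002088 stood CPIJ002089, which held 5.21 FPKM at 2 h, 117 FPKM at 12 h, 185 FPKM at 24 h, 213 FPKM at 36 h, 228 FPKM at 48 h, 282 FPKM at 60 h and 330.1 FPKM at 72 h. In both pairs the levels of the 2 neighbours had changed order by 12 h. The pairs were picked after their values were seen.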
